A study of Canis lupus familiaris with 33 samples.

Results

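The T-cell receptor complex and its proximal signalling genes were examined in lymph nodes of dogs with diffuse large B-cell lymphoma (DLBCL) and in healthy lymph nodes. The genes were chosen by name: the receptor chains CD3D, CD3E, CD3G and CD247, the kinases LCK and ZAP70, the adaptors LAT and TRAT1, and the surface protein CD5. Every probeset, a set of array probes read as 1 value, was used if the platform annotation gave it 1 of these symbols and no other. This found 8 of the 9 genes in 13 of 43035 probesets, and 5 of the 8 genes had 2 probesets each. ZAP70 has no row in that annotation, so a probeset that the study names for ZAP70 is given apart and is in no count.

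RNA was measured on 33 Affymetrix canine arrays, and values are log2 intensities after RMA (robust multi-array average) normalization, so that a difference of 1 is a factor of 2. The arrays came from 7 biopsies of DLBCL that had relapsed after CHOP chemotherapy, 16 biopsies of treatment naive DLBCL and 10 samples of healthy node from dogs euthanised for other reasons. Dogs with relapse were 6.4 to 11.8 years old, with a median of 8.7, and had last been treated 13 to 672 days earlier, with a median of 82; the protocol label names CHOP for 4 of the 7. Dogs with naive disease were 2.7 to 13.3 years old, with a median of 7.7. Arrays of 1 case were averaged, which left 22 DLBCL dogs, of which 1 gave both a naive and a relapsed biopsy, and 7 healthy dogs, of which healthy dog 1 gave 4 arrays. The biopsies are whole tissue of dogs of many breeds, and CD3 protein staining was part of the diagnosis, so that CD3 in the tumours is not independent of how they were selected.

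The T-cell receptor recognises antigen through variable chains that cannot signal on their own. The CD3 chains and CD247, the zeta chain, carry the activation motifs that LCK phosphorylates, ZAP70 binds to the phosphorylated motifs, and ZAP70 then phosphorylates LAT, the scaffold on which downstream effectors assemble. In a healthy lymph node these genes mark the T-cell zones, while DLBCL is a tumour of B cells in which T cells are part of the infiltrate. In dogs CD3G, CD3D and CD3E lie next to each other on chromosome 5, and CD5 lies next to CD6 on chromosome 18.

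Array medians lay between 6.85 and 6.97, and 17 probesets for control tags absent from tissue averaged 2.79 to 4.56. The RNA integrity number (RIN) was 9.1 to 9.9 in relapsed DLBCL, 8.9 to 10.0 in naive DLBCL and 5.8 to 9.4 in healthy nodes, where healthy dog 1 averaged 9.15 and the other 6 dogs lay between 5.8 and 7.7. Of 7 measured B-cell markers, all but PAX5 were lower in naive sample 5 than in every other tumour: MS4A1 was 8.51, against 12.57 to 13.86 in the other DLBCL arrays and 11.65 to 12.65 in healthy dogs, and the mean of the 7 was 7.94, against 10.18 to 11.32 in the other DLBCL arrays and 9.64 to 10.44 in healthy dogs. In the same biopsy the mean of 13 other T-cell genes was 8.50, the highest of the tumours (6.46 to 8.41 in the others), against 9.0 to 10.04 in healthy dogs. Its mean of NK-cell genes, 8.92, was also the highest (6.24 to 8.80 in the other tumours and 7.30 to 8.43 in healthy dogs). The macrophage mean was 10.47, with 8.10 to 10.72 in the other tumours. BANK1 was next lowest in relapsed sample 18, at 9.64. Without these 2 samples the number of members called below was the same.

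The first comparison asked how far the receptor genes differ between tumour and healthy node. At an adjusted p under 0.05 (limma, Benjamini-Hochberg over all probesets), 10 of 13 member probesets were lower in the 22 DLBCL dogs than in the 7 healthy dogs and 0 were higher, where 13.6% of all probesets were lower. All 10 differed by over 2-fold, against 4.46% of all probesets. The median log2 difference was -2.47 over the 13 probesets and 0.06 over all probesets. At 7 of the 13 every DLBCL dog lay below every healthy dog, which was so for 1.08% of all probesets. The genes with a called probeset were CD3E, CD247, LCK, LAT, TRAT1 and CD5, and the genes without one were CD3D and CD3G. In whole nodes fewer T cells and less RNA per T cell cannot be told apart.

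**Figure D1:**
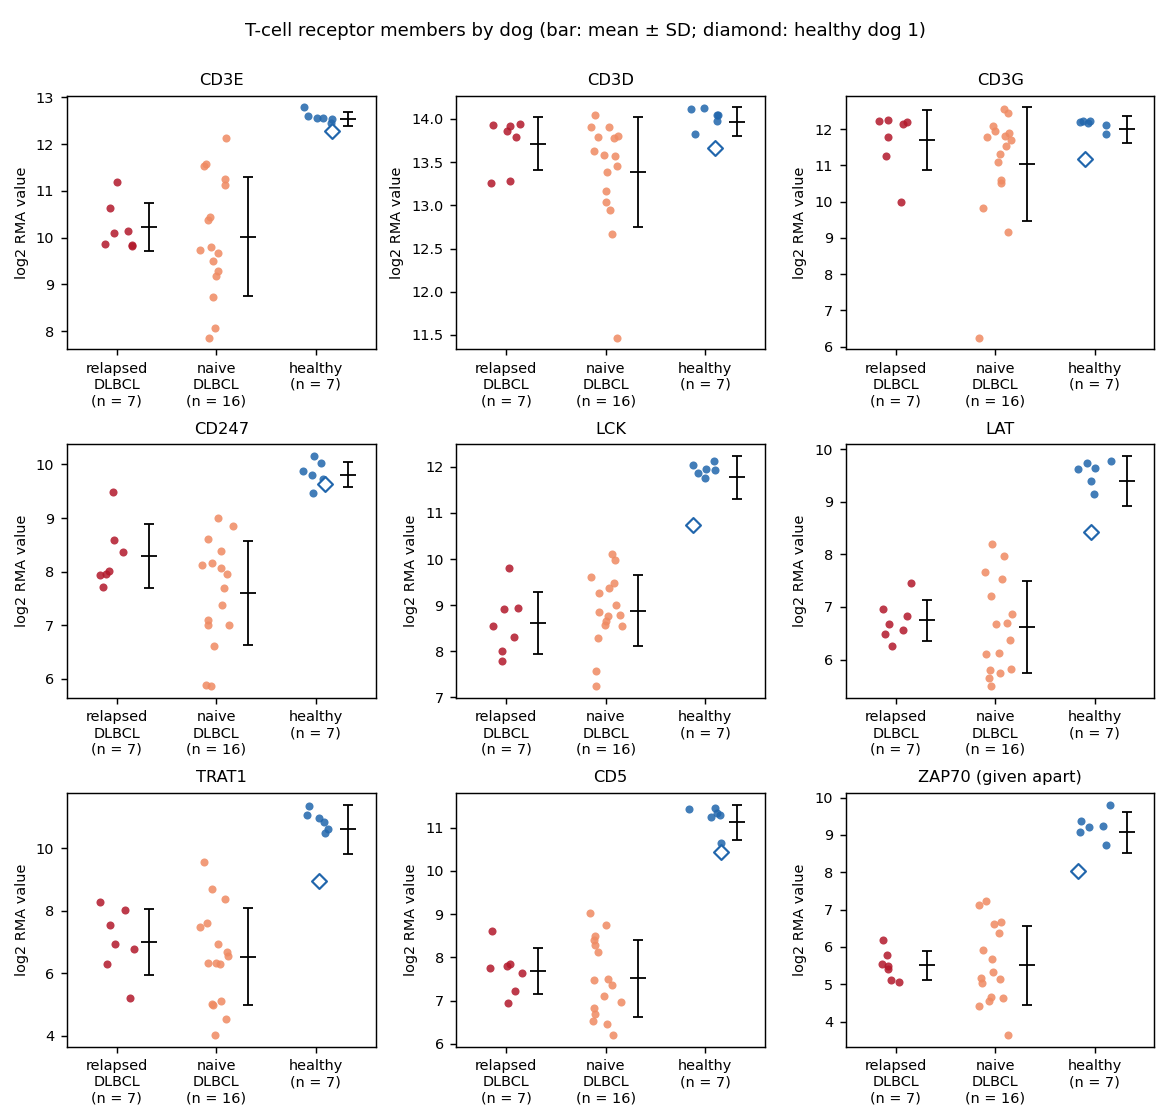
Log2 RMA values (vertical axes) of the 8 member genes at their brightest probeset, and of ZAP70, in relapsed DLBCL (7 dogs), naive DLBCL (16 dogs) and healthy nodes (7 dogs). Each point is a dog, bars show the mean ± SD, and the open diamond is healthy dog 1, the mean of 4 arrays. The tumours lie below all healthy dogs for CD3E, LCK, LAT, CD5 and ZAP70, and mix with them for CD3D and CD3G.

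Among the chains of the complex, CD3E, whose product pairs with those of CD3D and CD3G, had the clearest separation. At its brightest probeset CD3E ranged over 9.81, 10.09 and 11.18 (lowest, median and highest) in relapsed DLBCL and 7.86, 9.77 and 12.14 in naive DLBCL, against 12.28, 12.55 and 12.79 in healthy dogs. No tumour reached the lowest healthy dog, although naive sample 19, at 12.14, came within 0.14 of it. The log2 difference between DLBCL and healthy dogs was -2.47 (SE 0.40, adjusted p = 2.3e-05, limma), 5.56-fold lower. The dimmer CD3E probeset differed by -3.62 (SE 0.46, adjusted p = 9.2e-07), and the DLBCL dogs, at 6.11 to 11.34, again all lay under the healthy dogs, at 11.55 to 12.59. The spread among tumours, with an SD of 1.08 at the brighter probeset, was several times that among healthy dogs, 0.16.

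CD3D and CD3G, the delta and gamma chains, did not follow CD3E. CD3D ranged over 13.26, 13.86 and 13.94 in relapsed DLBCL and 11.47, 13.58 and 14.04 in naive DLBCL, against 13.66, 14.04 and 14.12 in healthy dogs. Of the 22 DLBCL dogs 12 lay below all healthy dogs and 10 lay within the healthy range. The log2 difference was -0.50 (SE 0.22, 95% interval -0.95 to -0.06, adjusted p = 0.076), and the second CD3D probeset gave -0.50 (SE 0.22, adjusted p = 0.079). Averaged over all arrays, the brighter CD3D probeset stood at percentile 99.1 of all probesets.

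CD3G ranged over 9.99, 12.15 and 12.26 in relapsed DLBCL and 6.25, 11.63 and 12.55 in naive DLBCL, against 11.19, 12.16 and 12.23 in healthy dogs. Of the DLBCL dogs 7 lay below all healthy dogs, 12 within their range and 3 above it. The log2 difference was -0.79 (SE 0.53, 95% interval -1.87 to 0.30, adjusted p = 0.27). Single tumours departed far from the rest. Naive sample 20 had CD3G at 6.25 with CD3D at 13.17, and naive sample 25 had CD3D at 11.47 with CD3G at 9.16. Without these 2 biopsies, CD3D was 12.67 to 14.04 and CD3G 9.84 to 12.55 in the other 20 DLBCL dogs.

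CD247, the zeta chain that carries most of the activation motifs, ranged over 7.72, 8.01 and 9.49 in relapsed DLBCL and 5.86, 7.83 and 9.0 in naive DLBCL, against 9.46, 9.80 and 10.16 in healthy dogs. Only relapsed sample 18, at 9.49, entered the healthy range. CD247 fell by 2.00 on the log2 scale in DLBCL relative to healthy dogs (SE 0.35, adjusted p = 5.3e-05), 4.01-fold. The lowest levels were in naive samples 20 and 22, at 5.86 and 5.89.

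LCK, the Src-family kinase that phosphorylates the receptor chains, ranged over 7.80, 8.54 and 9.81 in relapsed DLBCL and 7.24, 8.82 and 10.11 in naive DLBCL, against 10.74, 11.93 and 12.12 in healthy dogs. The groups did not overlap. The log2 difference was -3.00 (SE 0.29, adjusted p = 6.8e-09) at this probeset and -1.47 (SE 0.12, adjusted p = 3.1e-10) at the dimmer LCK probeset, where DLBCL dogs had 5.86 to 6.88 and healthy dogs 7.23 to 8.27. The ZAP70 probeset, given apart, ranged over 5.05, 5.49 and 6.18 in relapsed DLBCL and 3.64, 5.25 and 7.24 in naive DLBCL, against 8.04, 9.20 and 9.81 in healthy dogs. It did not overlap either and was 11.8-fold lower in DLBCL (log2 difference -3.56, SE 0.35, adjusted p = 1.1e-08). ZAP70 in naive samples 6, 8 and 15, at 3.64, 4.54 and 4.42, lay within the averages of the control tags, 2.79 to 4.56.

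Both adaptors fell. LAT ranged over 6.26, 6.68 and 7.46 in relapsed DLBCL and 5.49, 6.53 and 8.19 in naive DLBCL, against 8.42, 9.63 and 9.77 in healthy dogs, with no overlap. Its log2 difference was -2.75 (SE 0.29, adjusted p = 4.9e-08), and -2.07 (SE 0.18, adjusted p = 1.1e-09) at the second LAT probeset. TRAT1, an adaptor that associates with the receptor complex and stabilises it at the surface, ranged over 5.22, 6.93 and 8.27 in relapsed DLBCL and 4.02, 6.45 and 9.57 in naive DLBCL, against 8.96, 10.86 and 11.35 in healthy dogs. It had the lowest log2 difference of the 13 probesets, -3.96 (SE 0.55, adjusted p = 2.6e-06), a 15.6-fold fall. Naive samples 20 and 8, at 4.02 and 4.54, lay within the averages of the control tags, 2.79 to 4.56. Naive sample 23, at 9.57, lay above healthy dog 1, at 8.96, and the other 21 DLBCL dogs lay below all healthy dogs. The second TRAT1 probeset differed by -3.57 (SE 0.44, adjusted p = 5.7e-07).

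CD5, a surface glycoprotein that dampens receptor signalling, ranged over 6.94, 7.75 and 8.61 in relapsed DLBCL and 6.20, 7.42 and 9.03 in naive DLBCL, against 10.44, 11.30 and 11.46 in healthy dogs. The highest tumour lay 1.42 below the lowest healthy dog. CD5 was 12.0-fold lower in DLBCL (log2 difference -3.58, SE 0.30, adjusted p = 6.1e-10).

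**Figure D2:**
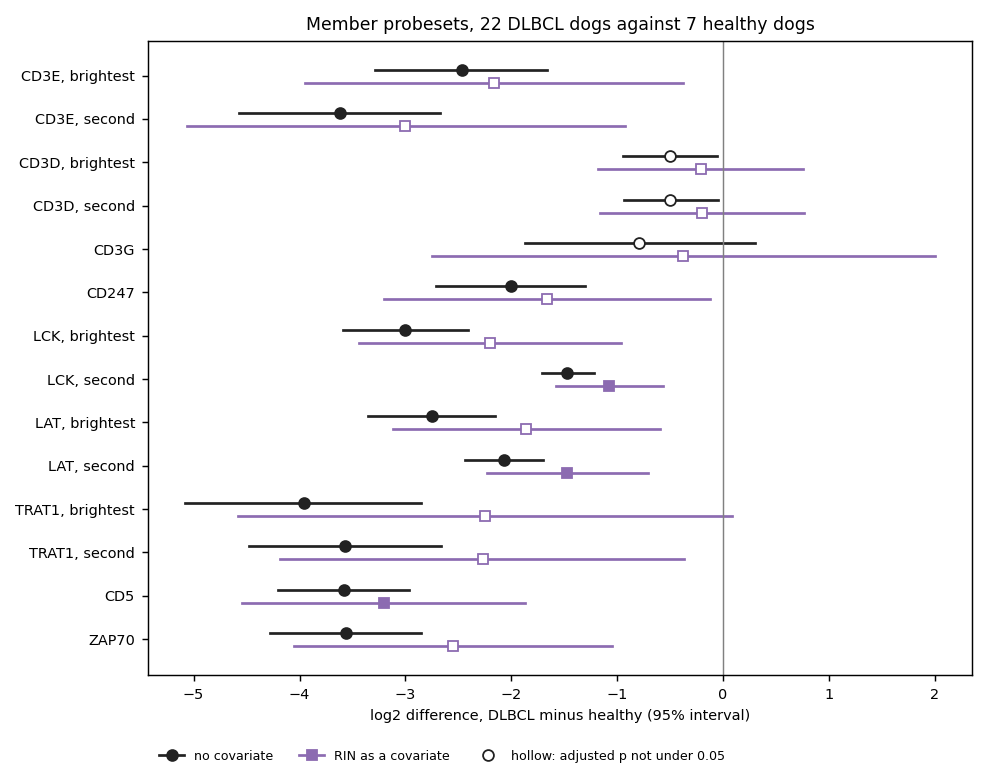
Log2 differences, DLBCL minus healthy (horizontal axis), with 95% intervals, of the 13 member probesets and ZAP70. Circles are the fit without a covariate and squares the fit with RIN; filled symbols have an adjusted p under 0.05. All estimates lie below 0, and the calls number 10 without RIN and 3 with it among the 13.

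RNA quality differed between the groups beside these results. With RIN as a covariate, 3 of the 13 probesets were called lower in DLBCL: CD5 (-3.20, SE 0.65, adjusted p = 0.010), the dimmer LAT probeset (-1.47, SE 0.37, adjusted p = 0.036) and the dimmer LCK probeset (-1.08, SE 0.24, adjusted p = 0.021). Of all probesets 1.16% were lower in that fit. The difference of CD3E was then -2.16 (SE 0.87, adjusted p = 0.21), that of LCK -2.20 (SE 0.61, adjusted p = 0.054) and that of TRAT1 -2.25 (SE 1.14, adjusted p = 0.35). These and the other probesets that lost their call had adjusted p of 0.054 to 0.35, and ZAP70 stood at -2.55 (SE 0.73, adjusted p = 0.066). All 13 kept their sign, their standard errors grew 2.07 to 2.18 times, and the median difference became -1.86. Healthy dog 1 is the only healthy dog with a RIN in the range of the tumours. Its level lay above all 22 DLBCL dogs at 8 of the 10 called probesets. At the other 2, those of TRAT1, it lay above 21 of 22. The mean of the DLBCL dogs minus its level was -2.91 to -0.91 at the called probesets. Healthy dog 1 was among the dogs that gave these calls, so this is no separate check of RNA quality. At the uncalled probesets that difference was -0.19 and -0.20 for CD3D and 0.02 for CD3G. There 12, 11 and 7 DLBCL dogs lay below healthy dog 1. At the same time healthy dog 1 had the lowest level of the healthy dogs at 12 of the 13 probesets. The SD over its 4 arrays was 0.08 to 0.34 at the called probesets.

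A call for CD3E and none for CD3D or CD3G does not show that these genes differ in their change, so the difference of each gene from CD3E was taken within each dog and compared between the groups (exact permutation test over 1560780 splits of the dogs, two-sided, adjusted over the 7 genes). Levels of different probesets are not comparable, and only the change of such a difference between the groups is read. CD3D minus CD3E was 3.40 ± 1.31 in DLBCL dogs and 1.43 ± 0.12 in healthy dogs (SD, n = 22 and 7), a change of 1.97 (exact permutation adjusted p = 0.0013). CD3G minus CD3E changed by 1.69, with 1.15 ± 1.67 in DLBCL and -0.54 ± 0.26 in healthy dogs (exact permutation adjusted p = 0.025; 0.051 without healthy dog 1). Relative to healthy nodes, CD3D and CD3G were thus higher against CD3E in the tumours in this test, which did not include RIN. In the limma fit with RIN the differences were -2.16 for CD3E (SE 0.87), -0.21 for CD3D (SE 0.47) and -0.38 for CD3G (SE 1.16). CD3D averaged 13.47 in DLBCL and 13.97 in healthy dogs, where the highest value of any probeset was 15.49. Neither the part of RNA quality nor that of a probeset's signal level in the within-dog changes was tested.

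The same measure fell for CD5 by 1.11 (-2.52 ± 0.49 in DLBCL and -1.41 ± 0.31 in healthy dogs, exact permutation adjusted p = 4.5e-05) and for TRAT1 by 1.49 (-3.40 ± 0.83 in DLBCL and -1.92 ± 0.70 in healthy dogs, exact permutation adjusted p = 0.00072). CD247, LCK and LAT did not pass the test at their brightest probesets, with changes of 0.47, -0.53 and -0.27 (exact permutation adjusted p = 0.28, 0.20 and 0.24). With the mean of all probesets of a gene in place of the brightest, LCK and LAT changed the other way, by 0.81 and 0.64, and all 7 passed. CD5 and TRAT1 then changed by -0.53 and -0.72 (exact permutation adjusted p = 0.031 each), less than at the brightest probesets, so that the size of these changes against CD3E depends on the probeset, as does the direction for LCK and LAT.

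**Figure D3:**
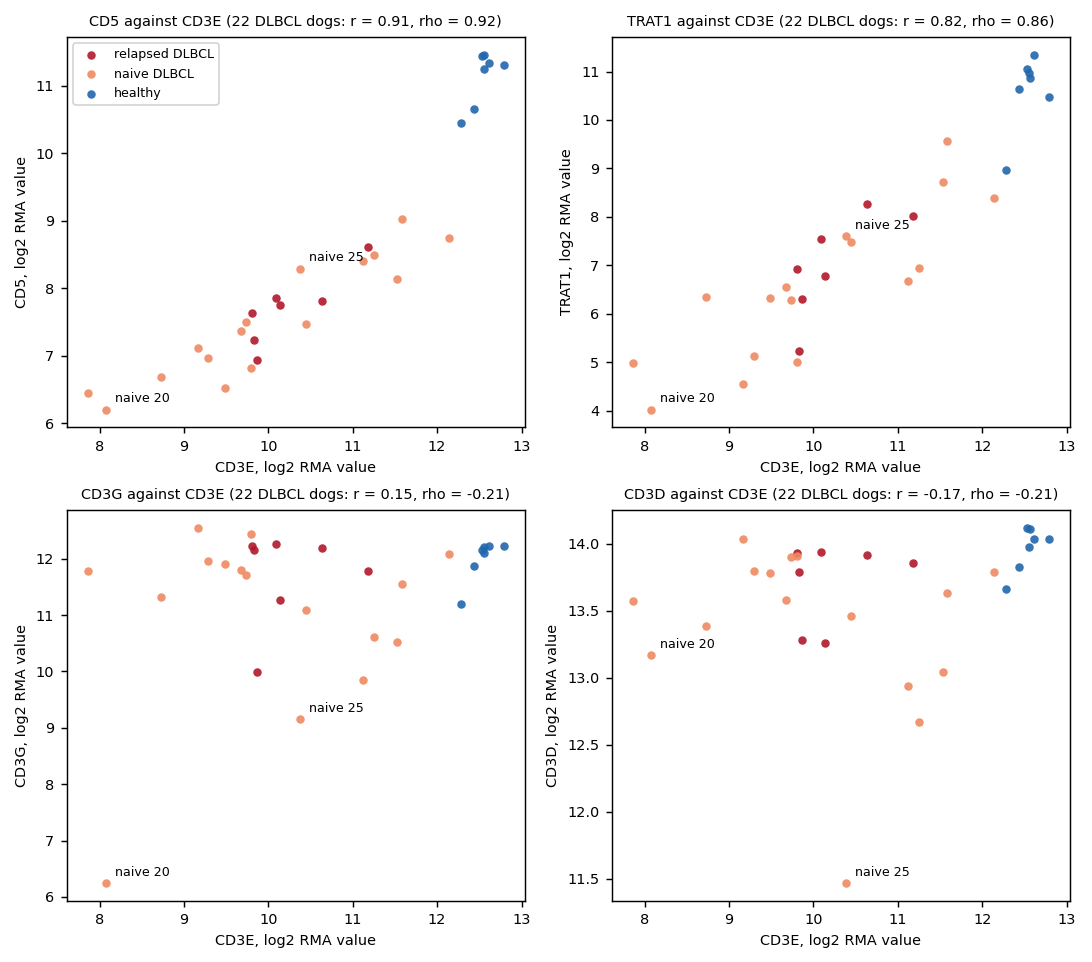
CD5, TRAT1, CD3G and CD3D (vertical axes) against CD3E (horizontal axes), all as log2 RMA values at the brightest probesets, with 1 point per dog in relapsed DLBCL, naive DLBCL and healthy nodes. CD5 and TRAT1 rise with CD3E over the DLBCL dogs (r = 0.91 and 0.82), and CD3G and CD3D do not (r = 0.15 and -0.17); naive samples 20 and 25 are marked.

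Over the 22 DLBCL dogs several member genes varied together. All 28 pairs of the 8 genes were correlated at the brightest probesets (100000 permutations, adjusted over the 28). CD3E went with CD5 (Pearson's r = 0.91, Spearman's rho = 0.92), LAT (0.91 and 0.95) and TRAT1 (0.82 and 0.86), each with the smallest p the permutations can give, 1e-05, and adjusted permutation p of 5.6e-05 for r and 4.7e-05 for rho. Without the 2 dogs farthest from the median of CD3E, r was 0.90, 0.93 and 0.80. It was 0.99, 0.95 and 0.92 in the 7 dogs of array day 1, and 0.91, 0.96 and 0.81 in the 7 of array day 2. Array days here are dates printed with the array names in the study's supplement. LCK was less close to CD3E (r = 0.56, rho = 0.62, adjusted permutation p = 0.021 and 0.0093; 0.41 on day 1 and 0.84 on day 2), and CD247 was not past the threshold (r = 0.41, rho = 0.39, adjusted permutation p = 0.10 and 0.14). CD247 went with TRAT1 (r = 0.62, rho = 0.58, adjusted permutation p = 0.0081 and 0.015; 0.75 on day 1 and 0.35 on day 2; 0.58 without the 2 farthest dogs).

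CD3D and CD3G varied together, and over the 22 dogs neither was correlated with another member past the threshold. Their rank correlation was 0.93 (adjusted permutation p = 4.7e-05) and Pearson's r was 0.65 (adjusted permutation p = 0.030), 0.73 without the 2 dogs farthest from the median of CD3D, 0.74 on day 1 and 0.89 on day 2. Against CD3E, CD3D had r = -0.17 and rho = -0.21, and CD3G had r = 0.15 and rho = -0.21 (adjusted permutation p = 0.46 to 0.59). On array day 1 both had r = 0.51 with CD3E, and on day 2 -0.12 for CD3D and -0.10 for CD3G. Over all 12 pairs of CD3D or CD3G with one of the other 6 genes, r was -0.29 to 0.17 and rho -0.34 to -0.10. Within array days this differed: r over the 12 pairs was -0.34 to 0.79 on day 1 and -0.45 to -0.08 on day 2. On day 1 CD3G had r = 0.79 with CD247, above its 0.74 with CD3D, 0.64 with TRAT1 and 0.59 with CD5, and CD3D had 0.58 with TRAT1. The dogs of day 1 include naive sample 20, the lowest tumour in CD3G (6.25), CD247 (5.86), TRAT1 (4.02) and CD5 (6.20). The day 1 values were not computed without it. Over the DLBCL dogs without the 2 farthest from the median of CD3G, CD3G had r = -0.29 with CD247, -0.24 with TRAT1 and -0.25 with CD5. The points of each correlation share arrays and normalization.

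**Figure D4:**
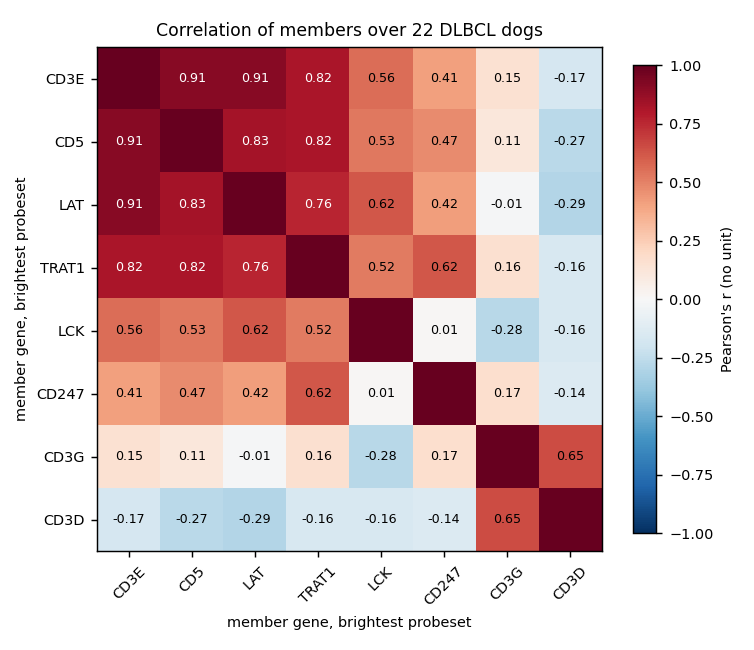
Pearson's r between the 8 member genes (both axes, brightest probesets) over 22 DLBCL dogs, with colour from -1 to 1. CD3E, CD5, LAT and TRAT1 form a block of 0.76 to 0.91, CD3D and CD3G share 0.65, and the pairs of CD3D or CD3G with the other 6 genes lie between -0.29 and 0.17.

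Several tumours were high or low in CD3E, TRAT1 and CD5 alike. Naive samples 19, 21 and 23 had CD3E at 12.14, 11.53 and 11.58, TRAT1 at 8.39, 8.71 and 9.57, and CD5 at 8.74, 8.13 and 9.03. At the other end naive samples 6 and 20 had CD3E at 7.86 and 8.07, TRAT1 at 4.99 and 4.02, and CD5 at 6.45 and 6.20. In sample 6 CD3D and CD3G were 13.57 and 11.78, within the range of most tumours, while LCK was 9.49 in sample 20. Naive sample 5, with the low B-cell markers, had CD3E at 11.25, CD5 at 8.49 and LAT at 7.96, near the top of the tumours, but TRAT1 at 6.95, near the DLBCL median of 6.72, CD247 at 7.0, below its median of 7.98, and CD3D at 12.67, the second lowest.

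Outside the members, the 8 genes of 15115 whose levels were most like the mean of the 8 centred members over the 22 DLBCL dogs were CD27 (r = 0.86), LOC607937 (0.84), CD7 (0.82), LOC607750 (0.81), LOC480788 (0.81), TNFRSF25 (0.80), LOC609053 (0.80) and CD28 (0.78). CD27 is a costimulatory receptor of lymphocytes, CD7 and CD28 are T-cell surface proteins, TNFRSF25 is a death-domain receptor of lymphocytes, and the 4 loci carry no other name. The members themselves were spread over this order. TRAT1 was at rank 1 (0.90), CD3E at 2 (0.89), CD5 at 4 (0.86) and LAT at 9 (0.81), while CD247 was at rank 87, LCK at 359, CD3G at 597 and CD3D at 5065. The members' own values are part of that mean.

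The second comparison asked whether relapse after chemotherapy and naive disease differ in these genes. Against healthy dogs, 10 of 13 member probesets were lower in relapsed DLBCL (8.43% of all probesets) and 12 of 13 in naive DLBCL (13.6% of all probesets). The 2 further calls in naive DLBCL were those of CD3D, at -0.58 and -0.57 (SE 0.22 each, adjusted p = 0.042 and 0.046, limma), against -0.26 and -0.27 in relapsed DLBCL (adjusted p = 0.54 and 0.52), and were lost without any one of healthy dogs 2 to 7. CD3G was at -0.31 in relapsed DLBCL and -0.96 in naive DLBCL relative to healthy dogs (adjusted p = 0.79 in relapsed and 0.18 in naive DLBCL). CD247 was at -1.52 in relapsed DLBCL (SE 0.40, adjusted p = 0.0085) and at -2.20 in naive DLBCL (SE 0.34, adjusted p = 1.3e-05). With RIN as a covariate 3 of 13 were lower in relapsed DLBCL (0.6% of all probesets) and 3 in naive DLBCL (1.55%).

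Directly compared, relapsed and naive DLBCL had 0 member probesets called by limma and 0 at an unadjusted p under 0.05, where 0.0% of all probesets were called and 2392 had an unadjusted p under 0.05. At the brightest probesets the largest of the 8 differences, relapsed minus naive, was that of CD247, 0.69 (95% interval -0.01 to 1.38, adjusted p = 0.89). It was 0.66 for CD3G (-0.45 to 1.77), 0.47 for TRAT1 (-0.70 to 1.64), 0.33 for CD3D (-0.12 to 0.78), 0.20 for CD3E (-0.67 to 1.07), 0.18 for CD5 (-0.48 to 0.84), 0.13 for LAT (-0.51 to 0.77) and -0.27 for LCK (-0.89 to 0.35). The intervals of CD247, CD3G, TRAT1 and CD3E reach past 1, so that a 2-fold difference of these genes is not excluded. At these probesets the relapsed values lay within the naive range for every gene except CD247, where relapsed sample 18 exceeded it. The median over the 13 probesets was 0.46 within array day 1 (2 relapsed and 6 naive arrays) and -0.13 within day 2 (3 and 4), and day 3 held no relapsed array.

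In the dog with both biopsies, 12 of 13 probesets were higher in the relapsed array, with differences of -0.04 to 1.76 over the 13. Some of the 12 were small, as 0.07 for CD3G, 0.09 for the second CD3D probeset and 0.17 for the dimmer LCK probeset. The share of all probesets higher in that array was not counted. CD3E was 11.18 in the relapsed and 9.73 in the naive biopsy, TRAT1 8.02 and 6.29, CD5 8.61 and 7.50, and CD247 8.36 and 7.70. CD3D was 13.86 and 13.90 and CD3G 11.78 and 11.71. This is 1 dog, with no replicate check, and without it the median difference of the members between relapsed and naive DLBCL was 0.03, against 0.20 with it.

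Other genes of the pathway were taken from lists of receptors, kinases and phosphatases, adaptors and effectors, each at its brightest probeset. Of 42 measured genes of 45 listed, 26 were lower in DLBCL than in healthy dogs and 3 were higher (adjusted p under 0.05, limma), where 14.9% of 15115 genes were lower and 19.9% higher. The median log2 difference was -0.82, against -2.61 for the 8 member genes and 0.06 for all genes. With RIN as a covariate 5 were lower and 0 higher, where 1.19% of genes were lower and 0.668% higher.

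All 8 coreceptors and surface receptors were lower, with a median of -1.97. CD28, the main costimulatory receptor, had 6.87 ± 1.13 in DLBCL and 10.68 ± 0.60 in healthy dogs (SD, n = 22 and 7), a log2 difference of -3.81 (SE 0.43, adjusted p = 1.3e-07). CD8B, a coreceptor chain of cytotoxic T cells, differed by -3.39, CD7 by -2.87 and CD6, a relative of CD5, by -2.50. CD2, an adhesion receptor, differed by -0.92, with 10.70 to 13.29 in DLBCL and 13.19 to 13.81 in healthy dogs. CD8A differed by -1.43, and the smallest differences of the list were those of CD4, -0.83, and PTPRC, -0.75.

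Of 9 kinases and phosphatases 5 were lower and 1 higher. PRKCQ, the protein kinase C isoform of the T-cell synapse, differed by -3.41 (SE 0.31, adjusted p = 2.3e-09), UBASH3A, a phosphatase-like suppressor of receptor signalling, by -2.37, TXK, a Tec-family kinase, by -2.11 and FYN, a Src-family kinase, by -1.32. PTPN6, a phosphatase also used by B cells, was higher by 0.64 (adjusted p = 7e-05). CSK, the kinase that inhibits LCK, differed by 0.13 (adjusted p = 0.45).

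Of 17 adaptors 12 were lower and 1 higher. THEMIS, which acts in thymocyte selection, differed by -2.63 (SE 0.18, adjusted p = 2.3e-11), and SIT1 by -2.37, FYB1 by -2.37 and SH2D1A by -2.32. LCP2, the partner of LAT, differed by -1.19, and GRB2, an adaptor of most cells, was higher by 0.39 (adjusted p = 0.033). Of 8 effectors, which act further from the receptor and in B cells too, 1 was lower and 1 higher: MALT1 by -0.82 (adjusted p = 0.034) and BCL10 by 0.36 (adjusted p = 0.035). RASGRP1 differed by 0.54 and PLCG1 by -0.33, both without a call. The median of the effectors was 0.05.

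**Figure D5:**
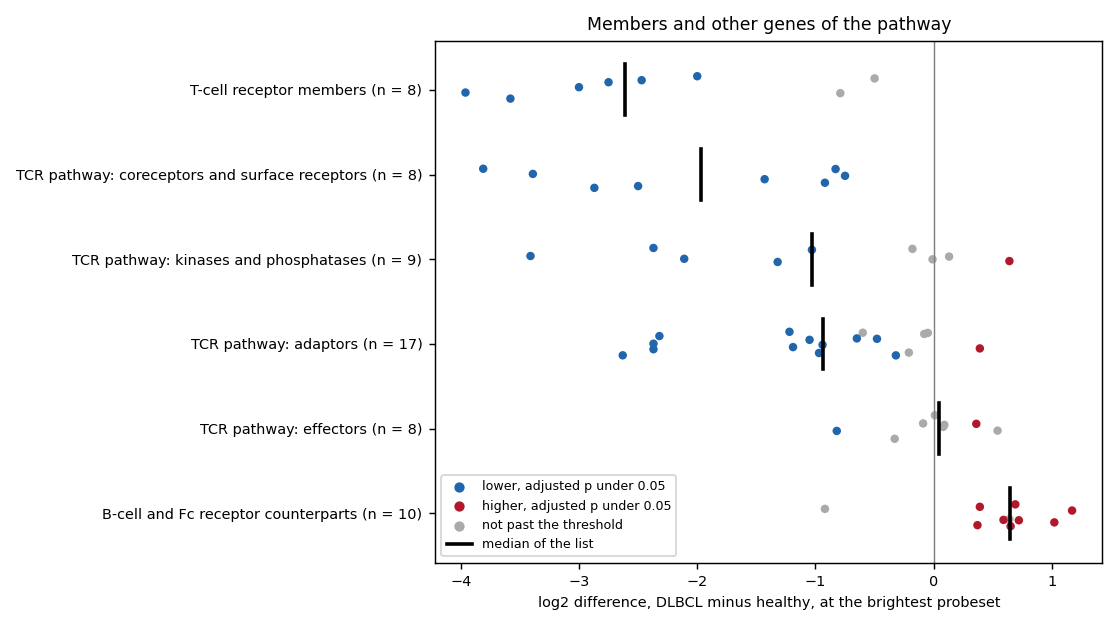
Log2 differences, DLBCL minus healthy (horizontal axis), of the 8 members, the other genes of the T-cell receptor pathway in 4 lists, and B-cell and Fc receptor counterparts, with 1 point per gene at its brightest probeset and a bar at the median of each list. Medians run from -2.61 in the members and -1.97 in the surface receptors to 0.05 in the effectors and 0.65 in the counterparts.

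Counterparts of the members in the B-cell and Fc receptors went the other way. Of 10 genes 8 were higher in DLBCL and 0 lower, with a median of 0.65, where 19.9% of all genes were higher. The receptor chain CD79A was higher by 0.72 (adjusted p = 0.0064), the kinase SYK, a relative of ZAP70, by 0.69 (adjusted p = 0.0034), LAT2, a relative of LAT, by 0.65 (adjusted p = 0.0011), the Src-family kinase BLK by 1.17 (adjusted p = 0.0005) and the adaptor BLNK by 1.02 (adjusted p = 0.0048). CD79B, at 0.64 (adjusted p = 0.20), and FCER1G, at -0.92 (adjusted p = 0.33), were not called. With RIN as a covariate none of the 10 was called, where 0.668% of all genes were higher.

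Marker lists of other cells moved with the members in part. Of all genes 14.9% were lower in DLBCL and 19.9% higher. All 13 measured T-cell genes beyond the members were lower in DLBCL, with list means of 6.46 to 8.50 in DLBCL and 9.0 to 10.04 in healthy dogs. Among them CD2, CD4, CD6, CD7, CD8A, CD8B and CD28 are also in the surface receptor list above. Likewise CD79A, CD79B and BLK are both B-cell markers and receptor counterparts, so that these lists are not separate counts. Of 8 NK-cell genes 3 were lower (6.25 to 8.92 in DLBCL and 7.30 to 8.43 in healthy dogs), of 7 macrophage genes 3 (8.10 to 10.72 in DLBCL and 8.89 to 11.66 in healthy dogs) and of 8 stromal genes 3, with 1 higher (9.59 to 12.62 in DLBCL and 10.84 to 12.26 in healthy dogs). Of 7 B-cell genes 2 were higher and 0 lower (7.94 to 11.32 in DLBCL and 9.64 to 10.44 in healthy dogs), and the defining marker PAX5 spanned 5.66 to 6.35 over the DLBCL arrays and 5.72 to 6.23 over the healthy dogs, with no separation of the groups at this probeset. With RIN as a covariate 4 of the 13 T-cell genes and 1 of the 8 NK-cell genes were lower, and no macrophage, stromal or B-cell gene was called. In that fit 1.19% of all genes were lower and 0.668% higher. The part of these cells in the members' levels was not tested.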

How the data were processed

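RNA of lymph node tissue was amplified, labelled and hybridised to Affymetrix canine arrays. The authors used the Affymetrix Expression Console for RMA normalization, and the deposited values are on the log2 scale, 1 per probeset and array. Their own tests used Partek. RMA sets the probe intensities of all arrays to a common distribution before summarising them per probeset, and understates the change of a dim probeset. The lowest value was 2.2 and the highest 15.49, 0 sample columns were left unused, and the number of arrays limits the precision.

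Groups came from the sample labels, and arrays with 1 case number were averaged. Gene symbols came from the platform annotation: 29264 probesets had 1 symbol, 439 several and 13332 none here. Each gene is represented by its brightest probeset, that with the highest mean over the 33 arrays. Of the 13 member probesets 5 are of the type that can match several transcripts. The ZAP70 probeset is the one a supplementary table of the study names. The test of DLBCL against healthy dogs was limma's (version 3.58.1, R 4.3.3), with the 3 groups in a second fit of 30 values, with Benjamini-Hochberg adjustment over 43035 probesets at 0.05. Intervals are 95%. Differences within a dog were compared by exact permutation of the dogs, where p is the share of splits with an absolute difference at least as large, and correlations by permutation (Python 3.11.15, numpy 2.4.6, pandas 2.3.3, scipy 1.17.1; plots with matplotlib 3.10.9). On simulated data, limma recovered 56%, 90% and 100% of probesets changed by 0.5, 1 and 2 (log2) between DLBCL and healthy dogs. There were 12 false calls. Between relapsed and naive DLBCL it recovered 42%, 86% and 96%, with 10 false calls. These rates are over randomly drawn probesets and not over the members, whose spread can be larger.

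The members and lists were chosen with earlier results of these data known. Text names all members at every probeset, up to 4 genes of each pathway list with the largest difference, further list genes as examples chosen after their values were seen, and the 8 genes most like the members. Some genes of the lists were not analysed here, and counts are of the measured ones. Array days were taken for 18 DLBCL arrays from dates printed with the array names in the study's supplement, not from the sample labels. A sample number printed with more than 1 date was given no day. Whether these dates mark batches was not tested. RNA was extracted in balanced random batches whose members were not assigned here. Nothing pairs DLBCL and healthy samples: the correlation of deviations of samples with the same number was -0.145 to 0.156 over 9 numbers, and above 0.1 for 1 of them. Alternatives were single arrays, a random block for the dog, the methods' ANOVA, RIN, a filter on dim probesets, other centring, a block for the array day and samples left out.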

Additional observations from a re-analysis of the deposited data

Results flagged for a closer look

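Healthy dog 1 stood far below the other 6 healthy dogs at 5 member probesets, where its gap to the nearest dog took more of the group's range than Dixon's 95% limit for 7 values allows. Its CD3G was 11.19, with the other healthy dogs at 11.88 to 12.23. LCK was 10.74, with the others at 11.75 to 12.12. The dimmer LAT probeset was 7.93, with the others at 8.79 to 9.12. TRAT1 was 8.96 at the brighter probeset, with the others at 10.48 to 11.35, and 8.53 at the second, with the others at 9.83 to 10.53. Its RIN was 9.15, against 5.8 to 7.7 in the others. In all 28 groups were examined, and chance alone marks about 1 in 20. No relapsed sample stood apart in this way.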

How the results depend on the processing

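The number of member probesets lower in DLBCL than in healthy dogs was 10 in every alternative except RIN as a covariate, which left 3; it was 10 to 10 when each healthy dog was left out. Against healthy dogs, RIN likewise left 3 in naive and 3 in relapsed DLBCL, and leaving out a healthy dog gave 10 to 12 and 10 to 10. A replicate block over the shared sample numbers gave 10, as did the same arrays without a replicate block, an alternative chosen after seeing the data, as was the fit of the 18 arrays of known day without the day; the numbers do not pair the samples. Relapsed against naive DLBCL gave 0 member probesets in all alternatives, 0 to 0 when each relapsed sample was left out.

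Of 7 differences from CD3E within a dog 4 passed the test; with the mean of all probesets of a gene 7 passed, and those of LCK and LAT turned to 0.81 and 0.64. The pathway lists had 26 genes lower and 3 higher; RIN left 5 and 0, and the mean of all probesets 25 and 1. Of the differences between relapsed and naive DLBCL, none of them called, those of CD3E, TRAT1 and CD5 turned to -0.12, -1.10 and -0.29 within array day 2, and that of CD3D to -0.05 within day 1. The cause of these changes was not tested. RIN differs between the groups almost without overlap, so that its part and that of the disease are poorly separated, and 7 healthy dogs limit what a fit with both can show.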
